A study of Mus musculus with 20 samples.

Results

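Granulocyte-monocyte progenitors (GMP) and common lymphoid progenitors (CLP), the committed myeloid and lymphoid progenitors of adult mouse bone marrow, were compared through 3 arrays of each. These are 6 of the 20 Affymetrix arrays of the series, chosen by their labels and not by any measured value. Both groups were wild-type C57bl/6 mice aged 8 to 14 weeks, untreated as far as the labels say. Cells were sorted into lysis buffer, and the RNA was carried through 2 rounds of amplification before labelling with biotin, a protocol for small samples that starts from the 3' end of transcripts. The surface markers of the sorts, the number of animals behind an array and whether replicates came from separate animals are not stated in the sources read for this work. The p-values therefore cover the variation among these arrays, some of which may be technical. The 2 arrays of lymphoid-primed multipotent progenitors (LMPP), from mice of the same genotype, strain and age, are given for reference and enter no test in the main comparison.

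GMP descend from multipotent progenitors and give rise to neutrophils and monocytes, with minor output to eosinophils, basophils and mast cells. Their program is built around the transcription factors C/EBPα and PU.1, growth through colony-stimulating factor receptors, and early loading of granules with proteases and peroxidase. CLP give rise to B cells, T cells, natural killer cells and innate lymphoid cells, depend on the interleukin 7 and Flt3 receptors, and begin to open the antigen receptor loci through E proteins, EBF1 and the RAG recombinase. LMPP stand upstream of both and still hold part of each program.

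Values are log2 intensities, with 1 probe set per gene, and a difference is the GMP mean minus the CLP mean in log2 units ± the standard error (SE) of the fit, with 3 arrays a side. A gene was called at an adjusted p under 0.05. A called gene is termed steady where its 3 GMP and 3 CLP arrays did not overlap and it stayed called, with the same sign, without any 1 of the 6 arrays, with its probe sets averaged, after a second quantile normalization, after centring on housekeeping genes and in a fit over the 20 arrays. Levels of different genes are not comparable on these arrays, and the low levels given below, near the array medians of about 3.79 to 4.04, are close to background, so a difference against them is no true ratio. In bulk RNA, fewer cells that express a gene and less of its RNA per cell cannot be told apart.

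The 3 GMP arrays were nearly alike and the 3 CLP arrays were not. Across the 11588 genes tested, GMP arrays correlated with each other at 0.993 to 0.996 and CLP arrays at 0.902 to 0.933, and the SD of a gene, averaged over genes as a root mean square, came to 0.174 in GMP and 0.581 in CLP. CLP array 2 stood nearest to GMP, at 0.868 to 0.876 against 0.742 to 0.793 for CLP arrays 1 and 3. Its actin 3' signal lay 3.26 log2 units above the 5' signal, against 5.2 and 5.27 in the other CLP arrays and 6.44 to 6.68 in GMP. The 21 housekeeping genes averaged 10.55, 10.53 and 10.42 in GMP and 9.46, 10.30 and 9.18 in CLP, so that CLP arrays 1 and 3 lay below the rest. Centring on these genes lowers each difference by 0.924. Values against CLP array 2 alone are therefore given beside the gene groups they touch; the part of RNA quality in these differences was not tested.

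Of 11588 genes tested, 3505 (30.2%) were called higher in GMP and 1609 (13.9%) lower. The 3 GMP arrays all lay above the 3 CLP arrays for 37.8% of genes and all below them for 22.1%. Higher genes made up 68.5% of the calls, but 56.0% after a second quantile normalization and 20.4% after centring on housekeeping genes, so the balance of directions is set by the scaling. The number of calls also fell without any 1 GMP array, to between 1816 and 2398 higher and 741 and 827 lower, and rose without CLP array 2, to 4921 higher and 2322 lower. To be tested, a gene had to exceed the median of its array in 3 or more of the 6 arrays, which a gene high in 1 group alone can do, so counts over tested members of a list describe only these. Counts of list members below are of steady genes, of which there were 1200 higher in GMP (10.4%) and 606 lower (5.23%). Against CLP array 2 alone, 1073 of the 1200 and 537 of the 606 were still called. The smallest difference among them was 1.37 log2 units for the higher and 0.661 for the lower genes, since a higher gene had to remain called after 0.924 was taken off and a lower gene gained by it. A difference of at least 3 log2 units was found for 207 higher and 78 lower steady genes.

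**Figure D1:**
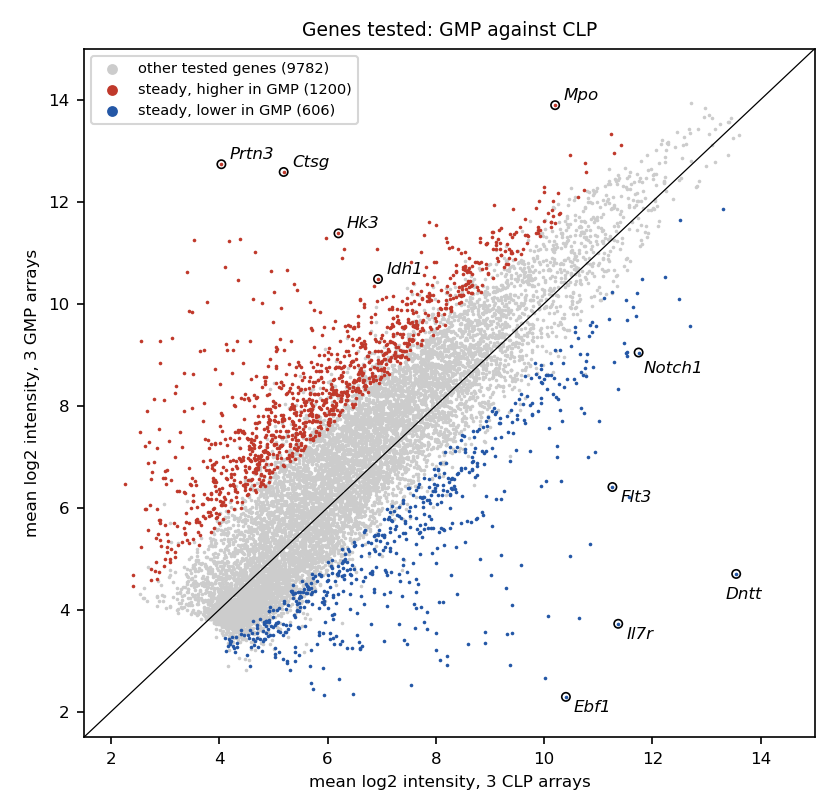
Mean log2 intensity of each tested gene in the 3 GMP arrays (vertical axis) against the 3 CLP arrays (horizontal axis), with the 1200 steady genes higher in GMP in red, the 606 lower in blue, all others in grey and the line of equal levels in black. Prtn3, Ctsg and Hk3 stand far above the line and Dntt, Il7r and Ebf1 far below it, while the red points start farther from the line than the blue ones.

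The labels were set beside marker genes, in lists chosen with earlier results of these data known. Which of these genes encode proteins used in the sorts is not stated in the sources read, so the counts give no independent check of the labels. Of 15 tested GMP markers 11 were steady and higher in GMP, among them Mpo, the peroxidase of primary granules (3.69 ± 0.16), Fcgr3, an immunoglobulin Fc receptor widely used to define such cells (5.42 ± 0.26), and Kit, the stem cell factor receptor (2.11 ± 0.38). The 11 CLP markers found on the arrays, of 14 listed, were each steady and lower in GMP, from Dntt to Cd27. Cd34 and Irf8 did not separate the groups, with differences of -0.49 ± 0.45 (adjusted p = 0.39) and 0.38 ± 0.30 (adjusted p = 0.33). Cd34 turned sign without CLP array 2 (0.0657) and was called lower in GMP against that array alone (-1.61, adjusted p = 0.0031) and after centring on housekeeping genes (-1.42, adjusted p = 0.0040). Irf8 was called higher without CLP array 2 (0.726, adjusted p = 0.0025), and its sign turned after centring on housekeeping genes (-0.545, adjusted p = 0.023), after a second quantile normalization (-0.0576) and against CLP array 2 alone (-0.315). Kit differed by 0.93 when its probe sets were averaged. Kit (1.23, adjusted p = 0.073) was not called against CLP array 2 alone.

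Among genes higher in GMP the largest steady difference was that of Prtn3, which encodes the neutrophil serine protease proteinase 3. It lay at 12.71, 12.74 and 12.75 in GMP and at 4.02, 4.33 and 3.76 in CLP. Ctsg, encoding the related protease cathepsin G, lay at 12.55, 12.56 and 12.63 in GMP and at 5.39, 5.47 and 4.70 in CLP. Both were thus near background in each CLP array while the LMPP arrays, at 10.15 and 11.06 for Prtn3 and 8.89 and 10.13 for Ctsg, lay between the groups, nearer to GMP. F13a1, the A subunit of coagulation factor XIII and a monocyte product, was at 11.29, 11.42 and 11.03 in GMP and at 3.47, 3.44 and 3.66 in CLP. Ms4a3, a four-pass membrane protein of granulocyte-monocyte precursors, was at 11.18, 11.29 and 11.23 in GMP and at 5.07, 3.44 and 4.03 in CLP. S100a8, a subunit of calprotectin, was at 10.78, 10.63 and 10.74 in GMP and at 3.60, 3.55 and 5.19 in CLP. For Ms4a3 and S100a8 the LMPP arrays were as low as CLP, at 3.82 and 4.0 and 3.73 and 3.29. The others among the 10 highest were App, the amyloid precursor protein (7.21 ± 0.35), Anxa3, a phospholipid-binding annexin (6.88 ± 0.24), Sgms2, a sphingomyelin synthase (6.71 ± 0.20), Mgst1, a microsomal glutathione transferase (6.42 ± 0.40), and Prom1, the membrane glycoprotein prominin (6.36 ± 0.22). That no GMP array overlapped a CLP array in these 10 genes follows from the rule for steady genes. App and Mgst1 differed by 2.41 and 3.15 when their probe sets were averaged.

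The opposite extreme was Dntt, terminal deoxynucleotidyl transferase, which adds bases at antigen receptor joints. It lay at 4.72, 4.66 and 4.72 in GMP and at 13.68, 13.60 and 13.37 in CLP, and at 12.72 and 12.76 in LMPP, so that its difference of -8.85 ± 0.21 was between GMP and both other progenitors. Ebf1, the transcription factor of early B cell commitment, was at 2.33, 2.33 and 2.21 in GMP and at 10.85, 9.93 and 10.42 in CLP. Il7r, the interleukin 7 receptor chain, was at 3.83, 4.0 and 3.33 in GMP and at 11.19, 11.72 and 11.20 in CLP. Rag1, a subunit of the recombinase, was at 2.68, 2.55 and 2.73 in GMP and at 9.70, 11.07 and 9.25 in CLP. For these last genes LMPP were near the GMP level or a little above it, with 2.53 and 2.41 for Ebf1, 5.90 and 4.79 for Il7r and 3.56 and 2.91 for Rag1. Next came Cmah, a hydroxylase of sialic acid (-6.80 ± 0.30), Gimap4 (-6.46 ± 0.28) and Gimap8 (-6.21 ± 0.29), small GTPases of lymphocyte survival, Mn1, a transcriptional co-regulator (-5.85 ± 0.32), Blnk, the B cell linker adaptor (-5.78 ± 0.34), and H2-Ob, a chain that modulates peptide loading on class II molecules (-5.57 ± 0.34). Ebf1 and Cmah differed by -4.15 and -2.58 when their probe sets were averaged.

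**Figure D2:**
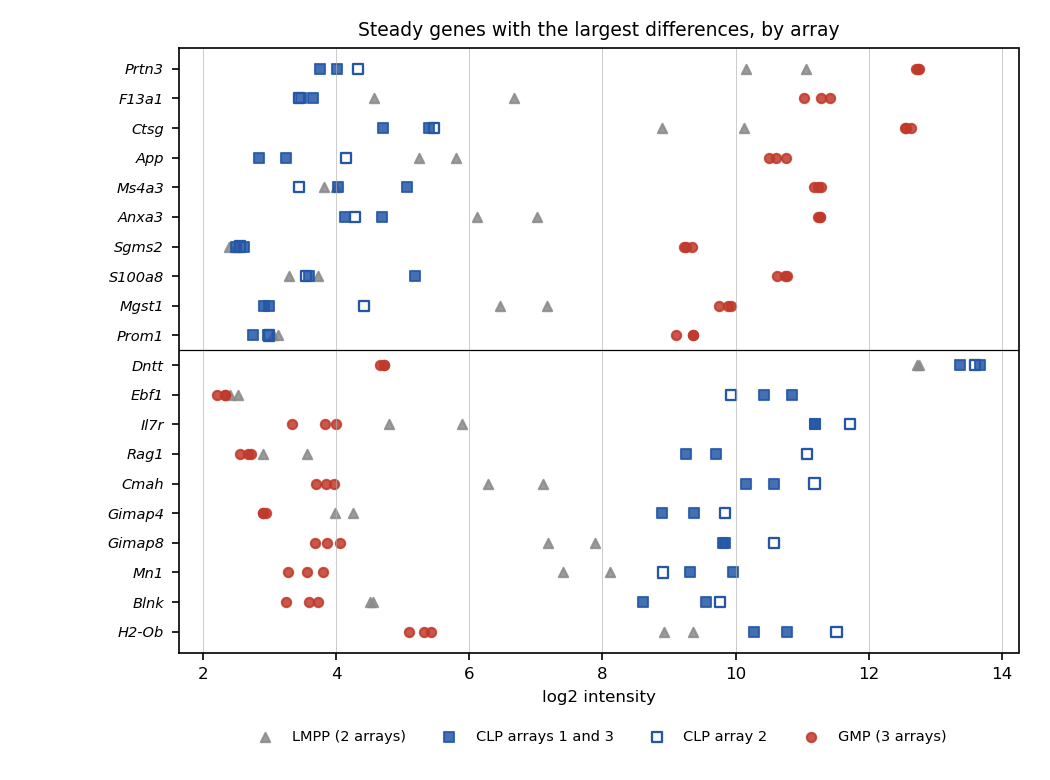
Log2 intensity (horizontal axis) of the 10 steady genes with the largest difference in each direction, 1 point per array, with GMP as red circles, CLP as blue squares (array 2 open) and LMPP as grey triangles. GMP and CLP points do not overlap in any of the 20 genes, which the rule for steady genes requires. LMPP points lie between them for Prtn3 and Cmah, beside CLP for Sgms2 and Dntt, and beside GMP for Ebf1.

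The start regions of genes at both extremes were read from RefSeq windows of the mouse assembly GRCm38.p6, each printed as the 250 bases before the transcription start. They are shown because granule genes and early B lineage genes moved as groups, and they are picked examples. Each granule window shown holds GAGGAA and each B lineage window shown holds CAGGTG. In the whole lists the motifs stood in 10 of 20 and 6 of 16 windows, so the examples do not stand for their lists. Of the 1806 steady genes, 1426 had a window. Capitals mark letters found by a search of both strands for GAGGAA (PU.1-type), CAGGTG (E2A-type) and TTGCNNAA (C/EBP-type); none of these overlapped another in the windows shown. The first 5 windows are of granule genes, higher in GMP.
Prtn3 (chr10:79879417-79879666, plus strand): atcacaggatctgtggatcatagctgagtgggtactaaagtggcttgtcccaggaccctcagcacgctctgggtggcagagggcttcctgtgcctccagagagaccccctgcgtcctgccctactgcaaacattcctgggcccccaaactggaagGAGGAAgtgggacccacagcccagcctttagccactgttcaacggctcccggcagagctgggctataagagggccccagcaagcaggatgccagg
Elane (chr10:79886062-79886311, plus strand): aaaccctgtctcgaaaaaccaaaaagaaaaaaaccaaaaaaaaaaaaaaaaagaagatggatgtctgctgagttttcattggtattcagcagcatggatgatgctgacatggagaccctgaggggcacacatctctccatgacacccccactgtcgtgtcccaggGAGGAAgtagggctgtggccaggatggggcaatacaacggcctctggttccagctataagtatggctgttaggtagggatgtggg
Ctsg (chr14:56102575-56102824, minus strand): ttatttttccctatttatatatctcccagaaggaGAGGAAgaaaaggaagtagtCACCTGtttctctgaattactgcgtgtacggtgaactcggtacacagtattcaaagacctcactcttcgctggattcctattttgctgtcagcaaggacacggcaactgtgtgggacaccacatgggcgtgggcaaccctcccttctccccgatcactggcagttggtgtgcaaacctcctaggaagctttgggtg
Mpo (chr11:87793534-87793783, plus strand): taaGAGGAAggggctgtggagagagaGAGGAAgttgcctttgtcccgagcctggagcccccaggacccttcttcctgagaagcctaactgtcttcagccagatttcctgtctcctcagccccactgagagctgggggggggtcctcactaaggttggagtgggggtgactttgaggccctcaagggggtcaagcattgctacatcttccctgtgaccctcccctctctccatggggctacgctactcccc
Lcn2 (chr2:32387740-32387989, minus strand): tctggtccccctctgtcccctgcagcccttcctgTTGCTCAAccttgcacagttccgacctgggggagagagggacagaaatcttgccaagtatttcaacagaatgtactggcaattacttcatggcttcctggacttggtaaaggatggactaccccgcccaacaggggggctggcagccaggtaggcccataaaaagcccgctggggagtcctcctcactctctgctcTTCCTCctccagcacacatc
The next 4 are of genes of the early B lineage, lower in GMP.
Rag1 (chr2:101649533-101649782, minus strand): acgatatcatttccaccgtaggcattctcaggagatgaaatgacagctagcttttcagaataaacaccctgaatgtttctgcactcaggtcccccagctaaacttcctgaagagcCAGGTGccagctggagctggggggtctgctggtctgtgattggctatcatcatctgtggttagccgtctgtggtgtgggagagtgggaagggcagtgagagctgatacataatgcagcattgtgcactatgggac
Blnk (chr19:40994222-40994471, minus strand): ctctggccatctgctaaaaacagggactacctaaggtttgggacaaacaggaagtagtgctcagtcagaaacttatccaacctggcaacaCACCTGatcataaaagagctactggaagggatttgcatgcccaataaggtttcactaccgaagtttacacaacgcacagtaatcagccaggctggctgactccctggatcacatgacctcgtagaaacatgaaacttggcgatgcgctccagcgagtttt
Vpreb1 (chr16:16869256-16869505, minus strand): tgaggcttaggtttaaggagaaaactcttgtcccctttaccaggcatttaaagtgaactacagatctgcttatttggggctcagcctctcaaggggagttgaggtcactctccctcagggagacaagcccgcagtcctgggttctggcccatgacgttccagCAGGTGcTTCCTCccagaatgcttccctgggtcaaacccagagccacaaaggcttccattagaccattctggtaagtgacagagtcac
Igll1 (chr16:16863986-16864235, minus strand): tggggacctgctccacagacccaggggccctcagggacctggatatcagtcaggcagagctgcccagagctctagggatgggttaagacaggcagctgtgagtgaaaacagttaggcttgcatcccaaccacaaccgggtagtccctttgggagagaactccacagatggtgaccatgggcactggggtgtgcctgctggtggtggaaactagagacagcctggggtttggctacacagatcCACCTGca
GAGGAA stood in 10 of 20 windows of steady granule genes, against 22.2% of the 12005 windows of tested genes. TTGCNNAA stood in 7 of the 20 (35.0%), against 7.6%. CAGGTG stood in 6 of 16 windows (37.5%) of steady B lineage genes, against 15.9%. Each motif was also more frequent in the other list than among tested genes, with GAGGAA in 5 (31.2%) and TTGCNNAA in 2 (12.5%) of the 16 B lineage windows and CAGGTG in 5 of the 20 granule windows. Over all steady genes the shares were near those of tested genes, with GAGGAA in 21.6% of windows of genes higher in GMP and 25.1% of those lower, TTGCNNAA in 8.14% and 7.52%, and CAGGTG in 15.4% and 18.9%. These are matches of letters in lists chosen with results known, and no binding was measured.

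Transcription factors of both lineages separated the progenitors, Cebpa and Ebf1 among them, while Spi1 and Irf8 did not. Of the 21 tested myeloid factors 8 were steady and higher in GMP and 2 steady and lower (4 more were too dim to test). Tfec, a factor of the MiT family, was at 7.69, 7.47 and 7.49 in GMP and at 3.03, 2.97 and 2.68 in CLP, and its relative Mitf differed by 3.53 ± 0.28. Cebpa, the C/EBP factor required to form GMP, was at 7.06, 7.04 and 6.58 in GMP and at 3.96, 3.78 and 4.11 in CLP, with LMPP between the groups at 5.46 and 5.72. Its relative Cebpd differed by 3.36 ± 0.23, Klf4, a factor of monocyte differentiation, by 3.02 ± 0.42, and Gfi1, a transcriptional repressor that acts in neutrophil formation, by 2.73 ± 0.48. Spi1, encoding PU.1, did not separate the groups, at 6.42, 6.67 and 6.48 in GMP and at 6.92, 6.09 and 5.99 in CLP (difference 0.19 ± 0.30, adjusted p = 0.62), and its sign turned after a second quantile normalization (-0.249) and after centring on housekeeping genes (-0.738). Egr1, an immediate early factor, and Rxra, a retinoid receptor, were the steady members lower in GMP, by -3.91 ± 0.61 and -1.51 ± 0.25. Mitf, Klf4 and Rxra differed by 1.74, 1.56 and -0.64 when their probe sets were averaged. Gfi1 and Egr1 differed by 1.65 and -2.44 against CLP array 2 alone.

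Of the 29 tested lymphoid factors 1 was steady and higher in GMP and 14 steady and lower (7 more were too dim to test). Beyond Ebf1, Bach2, a repressor that holds back myeloid genes in lymphoid cells, was at 3.91, 3.58 and 3.37 in GMP and at 7.49, 8.23 and 7.80 in CLP. Foxo1, which drives Il7r and Rag gene expression, was at 6.61, 6.71 and 6.24 in GMP and at 10.19, 9.99 and 9.91 in CLP, and LMPP at 6.69 and 6.22 were like GMP. Tcf4, encoding an E protein, was at 6.89, 7.13 and 6.97 in GMP and at 10.25, 10.24 and 10.24 in CLP, and here LMPP at 10.24 and 10.04 were like CLP. Pou2af1, a B cell co-activator, differed by -3.61 ± 0.43. Lmo4, a LIM-only adaptor, was the steady member in the other direction (1.81 ± 0.39). Myb, needed in both lineages, did not separate the groups (0.17 ± 0.17, adjusted p = 0.43), and its sign turned after a second quantile normalization (-0.165) and after centring on housekeeping genes, where it was called (-0.755, adjusted p = 0.0042). Foxo1 and Tcf4 differed by -2.25 and -1.88 when their probe sets were averaged. Lmo4 differed by 1.14 against CLP array 2 alone.

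Cytokine and growth factor receptors were divided between the progenitors. Of 33 tested 4 were steady and higher in GMP and 7 steady and lower (9 more were too dim to test). Csf1r, the receptor of macrophage colony-stimulating factor, was at 10.83, 10.86 and 10.77 in GMP and at 8.98, 8.41 and 9.10 in CLP. Csf2rb, the signalling chain shared by the receptors of interleukin 3, interleukin 5 and GM-CSF, was at 8.77, 8.81 and 8.61 in GMP and at 6.59, 6.97 and 7.15 in CLP. Ifngr1, a chain of the interferon gamma receptor, differed by 1.96 ± 0.24. Csf3r, the G-CSF receptor, was called (1.39 ± 0.31, adjusted p = 0.0098) but not without GMP array 1 (adjusted p = 0.055), and Csf2ra (0.86 ± 0.24) turned sign after centring on housekeeping genes (-0.0601). On the lymphoid side Flt3 was at 6.40, 6.46 and 6.36 in GMP and at 11.43, 11.48 and 10.88 in CLP, with LMPP at 11 and 10.99. Il18r1 and Il18rap, the chains of the interleukin 18 receptor, were both lower in GMP, by -3.60 ± 0.27 and -1.99 ± 0.29, and Il27ra, of the interleukin 27 receptor, by -2.29 ± 0.24. Probe sets for Csf2rb can also bind messages of its near-identical copy Csf2rb2.

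Innate sensing receptors were mostly higher in GMP. Of the 29 tested pattern and Fc receptors 16 were steady and higher in GMP and 2 steady and lower (15 more were too dim to test). Trem3, an activating receptor of the TREM family, was at 10.13, 10.13 and 10.02 in GMP and at 4.36, 4.20 and 5.32 in CLP. Clec4a2 and Clec7a, C-type lectins, the latter the beta-glucan receptor dectin 1, differed by 5.29 ± 0.29 and 4.41 ± 0.31, and Clec5a, another C-type lectin, by 4.11 ± 0.19. For each of these the LMPP arrays were near CLP, for example 3.81 and 4.33 for Trem3. The steady members lower in GMP were Tlr7 (-1.82 ± 0.33) and Tlr8 (-0.88 ± 0.18), endosomal sensors of single-stranded RNA that neighbour each other on the X chromosome. In the main fit 20 of the 29 were called higher and 3 lower (30.2% and 13.9% over all genes). Tlr7 lay at 3.40, 3.76 and 3.78 in GMP and at 4.86, 6.20 and 5.36 in CLP. Tlr8 lay at 3.50, 3.50 and 3.53 in GMP and at 4.59, 4.07 and 4.53 in CLP, close to background. Clec4a2 differed by 2.97 when its probe sets were averaged. Tlr8 (-0.55, adjusted p = 0.12) was not called against CLP array 2 alone.

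**Figure D3:**
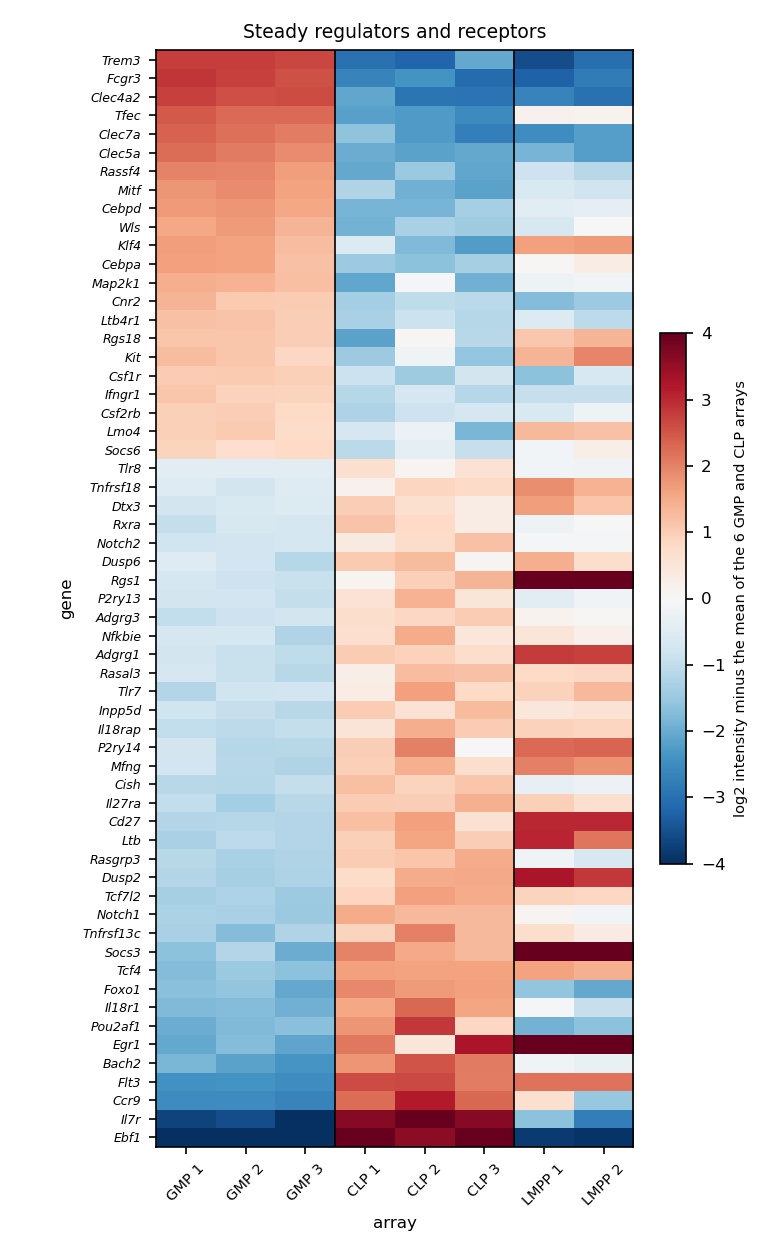
Log2 intensity minus the mean of the 6 GMP and CLP arrays (colour scale, saturated at 4 in either direction) for 59 steady transcription factors, receptors and signalling regulators (rows, ordered by difference) in GMP, CLP and LMPP arrays (columns). The 22 genes higher in GMP form the upper block and the 37 lower ones the lower block. LMPP follow CLP for Flt3 and Tcf4, follow GMP for Ebf1 and Foxo1, and exceed both for Socs3, Egr1 and Rgs1.

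Receptors of other families added fewer genes. Of 40 tested G protein-coupled receptors 2 were steady and higher in GMP and 7 steady and lower (17 more were too dim to test). Cnr2, the cannabinoid receptor of immune cells, was at 5.57, 5.25 and 5.22 in GMP and at 2.84, 3.19 and 3.13 in CLP, and Ltb4r1, the leukotriene B4 receptor, at 6.79, 6.73 and 6.59 in GMP and at 4.30, 4.74 and 4.47 in CLP. Ccr9, a chemokine receptor that directs lymphoid progenitors to the thymus and gut, was at 3.13, 3.15 and 2.98 in GMP and at 7.87, 8.83 and 7.94 in CLP. P2ry14, a receptor of nucleotide sugars, differed by -1.99 ± 0.47, P2ry13 by -1.63 ± 0.26, and the adhesion receptors Adgrg1 and Adgrg3 by -1.77 ± 0.23 and -1.70 ± 0.19. Ccr9 differed by -1.57 when its probe sets were averaged. P2ry14 differed by -3.02 against CLP array 2 alone.

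Of the 40 tested adhesion and surface molecules 4 were steady and higher in GMP and 8 steady and lower (10 more were too dim to test). Integrin alpha chains Itga6 (3.56 ± 0.29) and Itga1 (2.88 ± 0.23), the beta chain Itgb3 (2.88 ± 0.26) and the tetraspanin Cd9 (1.95 ± 0.20) were higher in GMP. Ly6d, which marks B-biased lymphoid progenitors, was at 3.65, 3.45 and 3.83 in GMP and at 7.06, 7.91 and 7.86 in CLP, with LMPP at 4.22 and 4.08. Tspan13, a tetraspanin (-3.04 ± 0.33), Cd96, an immunoglobulin-family receptor (-2.79 ± 0.32), the lectin-like Cd93 (-1.94 ± 0.18) and Ly6e (-1.44 ± 0.24) were also lower in GMP. Itga1, Itgb3 and Cd93 differed by 1.47, 1.15 and -1.20 when their probe sets were averaged.

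Of 27 tested genes of the Notch and Wnt pathways 1 was steady and higher in GMP and 5 steady and lower (6 more were too dim to test). Notch1, the receptor that starts the T cell path, was at 9.14, 9.08 and 8.90 in GMP and at 11.86, 11.68 and 11.70 in CLP, and Notch2, which acts in marginal zone B cells, was also lower in GMP (-1.52 ± 0.26). Mfng, a glycosyltransferase that tunes Notch ligand binding, differed by -2.05 ± 0.28, Dtx3, of the deltex family, by -1.28 ± 0.26, and Tcf7l2, a nuclear effector of Wnt signalling, by -2.67 ± 0.24. Wls, the carrier that Wnt proteins need for secretion, was the steady member higher in GMP, at 7.82, 7.95 and 7.63 in GMP and at 4.37, 4.95 and 4.84 in CLP. Of 18 tested members of the tumour necrosis factor family and its receptors 4 were steady and lower in GMP (13 more were too dim to test). They were Tnfrsf13c, the BAFF receptor (-2.80 ± 0.32), Ltb, lymphotoxin beta (-2.35 ± 0.22), Cd27 (-2.31 ± 0.30) and Tnfrsf18 (-1.19 ± 0.23). Cd27 and Ltb were higher still in LMPP, at 9.77 and 9.75 and 7.72 and 6.80.

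Granule genes were almost uniformly higher in GMP. Of the 27 tested 21 were steady and higher in GMP (4 more were too dim to test), and 26 of the 27 were called. Beyond the proteases, Hp, haptoglobin, was at 10.65, 10.42 and 10.31 in GMP and at 3.96, 4.25 and 4.81 in CLP. Elane, neutrophil elastase, was at 8.31, 7.89 and 8.26 in GMP and at 4.34, 4.75 and 4.50 in CLP, and Mpo at 13.88, 13.89 and 13.90 in GMP and at 10.21, 10.34 and 10.06 in CLP, so that Mpo was also far above the array medians in CLP and Elane was close to them. The median difference of the granule list was 2.41, and 2.45 against CLP array 2 alone (0.246 and 0.0754 over all genes tested). Of the 8 tested components and regulators of the phagocyte oxidase, which makes superoxide, 5 were steady and higher in GMP. In the main fit 6 of the 8 were called higher and 1 lower, which was not steady (30.2% and 13.9% were called over all genes). Cybb, its catalytic subunit, was at 8.99, 8.72 and 8.13 in GMP and at 3.33, 3.74 and 3.46 in CLP, and its partner Cyba at 7.55, 7.49 and 7.33 in GMP and at 4.67, 6.27 and 5.51 in CLP. Hvcn1, the proton channel that compensates its charge, differed by 2.36 ± 0.41, and the small GTPases Rac1 and Rap1a by 2.05 ± 0.27 and 1.70 ± 0.40. LMPP were low for Cybb (2.85 and 3.47) but above GMP for Cyba (8.68 and 8.12). Cybb and Rac1 differed by 2.38 and 0.79 when their probe sets were averaged. Cyba differed by 1.19 against CLP array 2 alone. Rap1a (0.76, adjusted p = 0.088) was not called against CLP array 2 alone.

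Steady genes of the antigen receptor machinery were mostly lower in GMP. Of 31 tested members of the receptors and their signalling cascade 1 was steady and higher in GMP and 13 steady and lower (11 more were too dim to test). Vpreb1 and Igll1, the surrogate light chain of the pre-B receptor, were at 5.15, 4.89 and 4.58 in GMP and at 9.53, 10.22 and 8.99 in CLP and at 5.29, 5.25 and 5.10 in GMP and at 7.6, 8.45 and 7.99 in CLP. Blk and Fyn, kinases of the Src family, differed by -2.79 ± 0.27 and -2.66 ± 0.30. Fyn was equally high in LMPP (7.84 and 7.95), whereas Blk was not (3.04 and 3.18). Vav1, a guanine nucleotide exchange factor used in all blood lineages, was the steady member higher in GMP (1.81 ± 0.40). Of 17 tested genes of recombination and joining 1 was steady and higher in GMP and 4 steady and lower (1 more was too dim to test). Rag2, the partner of Rag1, was at 4.51, 4.44 and 4.58 in GMP and at 7.50, 8.16 and 7.34 in CLP, and Xrcc5, encoding the Ku80 end-binding protein, differed by -1.57 ± 0.20, while Mre11a, of the nuclease that processes broken ends, was higher in GMP (2.13 ± 0.45). Igll1, Vav1 and Mre11a differed by -1.37, 1.15 and 0.89 when their probe sets were averaged. Vav1 differed by 0.86 against CLP array 2 alone. Mre11a (1.03, adjusted p = 0.14) was not called against CLP array 2 alone.

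Signalling regulators had more steady members lower than higher in GMP. Of 32 tested regulators of Ras and MAP kinases 2 were steady and higher in GMP and 8 steady and lower (4 more were too dim to test). Rassf4, a Ras association protein, was at 9.59, 9.55 and 9.28 in GMP and at 5.54, 6.11 and 5.5 in CLP, and Map2k1, the kinase MEK1, differed by 2.70 ± 0.51. The phosphatases Dusp2 and Dusp6, which switch off MAP kinases, were lower in GMP, by -2.49 ± 0.28 and -1.62 ± 0.35, as were the Ras activator Rasgrp3 (-2.42 ± 0.18) and the Ras inhibitor Rasal3 (-1.79 ± 0.32). Of 32 tested members of the SOCS and RGS families and other inhibitors 2 were steady and higher in GMP and 7 steady and lower (5 more were too dim to test). Cish, a target of STAT5 that restrains cytokine receptors, was at 5.73, 5.68 and 5.89 in GMP and at 8.04, 7.74 and 7.94 in CLP, and Socs3, its relative, at 3.21, 3.68 and 2.86 in GMP and at 6.84, 6.38 and 6.15 in CLP. Inpp5d, the phosphatase SHIP1, differed by -1.89 ± 0.24, Nfkbie, an inhibitor of NF-kB, by -1.73 ± 0.33, and Rgs1, which dampens G protein signals, by -1.63 ± 0.32, while its relative Rgs18 (2.13 ± 0.49) and Socs6 (1.58 ± 0.25) were higher in GMP. Of the 10 tested JAK and STAT genes none was steady. The GMP arrays all lay below the CLP arrays for 6 of the 10 (22.1% over all genes) and above them for 1 (37.8%). Jak2, called with a difference of 0.92 ± 0.22, lost its call without GMP array 1 or 2 and reversed after centring on housekeeping genes (-0.00882). Stat2 was called lower in GMP (-0.80 ± 0.24, adjusted p = 0.029) but not without CLP array 1. After centring on housekeeping genes 8 of the 10 were called lower, as were 5508 of all 11588 genes tested. Rassf4, Rasgrp3 and Socs3 differed by 2.35, -1.39 and -1.75 when their probe sets were averaged. Map2k1 differed by 1.39 against CLP array 2 alone. Rgs18 (1.01, adjusted p = 0.19) and Socs6 (1.15, adjusted p = 0.077) were not called against CLP array 2 alone.

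Chromatin and RNA regulators followed. Of 38 tested chromatin genes 3 were steady and higher in GMP and 10 steady and lower (2 more were too dim to test). Hmga2, an architectural protein of self-renewing progenitors, was at 5.73, 5.87 and 5.53 in GMP and at 8.86, 8.63 and 8.46 in CLP, and Satb1, an organiser of lymphoid chromatin, at 8.91, 8.80 and 8.83 in GMP and at 11.25, 11.74 and 10.88 in CLP. The histone demethylase Kdm6b (-2.26 ± 0.32), the Polycomb protein Cbx2 (-2.24 ± 0.23) and the methyltransferase Kmt2a (-2.11 ± 0.39) were also lower in GMP. Chd7, a chromatin remodeller, was at 6.24, 6.24 and 6.34 in GMP and at 3.87, 3.93 and 3.76 in CLP, and Hells, a helicase of DNA methylation, and Suz12, a Polycomb core subunit, differed by 2.47 ± 0.52 and 1.60 ± 0.35. Of 29 tested RNA regulators 4 were steady and higher in GMP and 4 steady and lower (4 more were too dim to test). Hnrnpll, a splicing regulator, was at 10.21, 10.16 and 9.99 in GMP and at 6.86, 7.64 and 6.75 in CLP, and Larp1b, Cpeb4 and Mbnl3, which bind messenger RNA, differed by 2.31 ± 0.30, 2.04 ± 0.32 and 1.5 ± 0.28. Zfp36l1 and Zfp36, which promote decay of AU-rich messages, were lower in GMP by -3.83 ± 0.24 and -2.40 ± 0.41, as was the RNA-binding protein Msi2 (-1.83 ± 0.27). Zfp36l1 lay at 5.27, 4.94 and 4.76 in GMP and at 8.69, 8.89 and 8.87 in CLP. Cbx2, Hells, Larp1b, Cpeb4 and Zfp36l1 differed by -1.29, 1.00, 1.03, 0.93 and -2.16 when their probe sets were averaged. Mbnl3 differed by 1.00 after a second quantile normalization. Hells and Mbnl3 differed by 1.51 and 0.96 against CLP array 2 alone. Suz12 (0.94, adjusted p = 0.059) and Cpeb4 (1.58, adjusted p = 0.06) were not called against CLP array 2 alone.

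Metabolic lists had positive median differences, but so had the 21 housekeeping genes, and the sizes have to be read against them. The median difference was 0.87 for the housekeeping genes, 1.06 for the citric acid cycle, 1.12 for oxidative phosphorylation, 1.68 for the pentose phosphate pathway and other sources of NADPH, and 1.77 for the endoplasmic reticulum, against 0.246 over all genes tested. Against CLP array 2 alone the same medians were 0.20, 0.39, 0.61, 1.15 and 1.05, against 0.0754 over all genes. All 5 medians were thus smaller against CLP array 2, and the order was alike except that NADPH supply and the endoplasmic reticulum changed places. Centring on housekeeping genes left medians of 0.14 for the citric acid cycle, 0.20 for oxidative phosphorylation, 0.76 for NADPH supply and 0.84 for the endoplasmic reticulum. It turned the medians of 9 other metabolic lists below 0, from -0.67 for eicosanoids, -0.49 for fatty acids and -0.31 for glycolysis through -0.21 for sphingolipids and glycans, -0.21 for amino acids, -0.19 for one-carbon and nucleotide metabolism, -0.16 for sterols and -0.13 for redox genes to -0.07 for heme and iron.

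In glycolysis, of 24 tested genes 6 were steady and higher in GMP and 2 steady and lower (2 more were too dim to test). Hk3, the hexokinase of myeloid cells, was at 11.32, 11.47 and 11.34 in GMP and at 6.07, 6.16 and 6.37 in CLP, and LMPP at 8.90 and 8.22 lay between. Pfkp, a phosphofructokinase, was at 8.37, 8.25 and 8.09 in GMP and at 5.88, 6.21 and 4.28 in CLP. Pgam1, phosphoglycerate mutase, and Slc16a1, a lactate transporter, differed by 2.45 ± 0.42 and 2.14 ± 0.43, and Pdk3, a kinase that inhibits pyruvate dehydrogenase, by 2.28 ± 0.52. Slc2a3, the glucose transporter GLUT3, was lower in GMP, at 6.74, 6.81 and 6.68 in GMP and at 8.17, 8.25 and 7.69 in CLP. Pdk2, another kinase of pyruvate dehydrogenase, was also lower in GMP (-0.93 ± 0.15). Its means of 3.197 in GMP and 4.131 in CLP were near or below the array medians. Both levels of Pdk2 are thus close to background, and whether these kinases are regulated in opposite directions was not tested. Pfkp, Slc16a1 and Slc2a3 differed by 1.17, 1.03 and -0.66 when their probe sets were averaged. Pgam1 and Pdk3 differed by 1.43 and 1.40 against CLP array 2 alone. Slc16a1 (1.22, adjusted p = 0.073) was not called against CLP array 2 alone.

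In the pentose phosphate pathway and NADPH supply, of 13 tested genes 7 were steady and higher in GMP (1 more was too dim to test). Idh1, the cytosolic isocitrate dehydrogenase, was at 10.53, 10.58 and 10.34 in GMP and at 7.03, 7.04 and 6.72 in CLP. Rpia, ribose 5-phosphate isomerase, was at 10.99, 10.91 and 10.56 in GMP and at 7.98, 8.00 and 7.92 in CLP, and Pgd, 6-phosphogluconate dehydrogenase, at 12.59, 12.60 and 12.52 in GMP and at 10.75, 10.95 and 10.64 in CLP. LMPP were as low as CLP for Idh1 (6.75 and 7.03) and lower than CLP for Pgd (9.73 and 9.76). Rpe and Taldo1, which act in the non-oxidative branch, differed by 2.21 ± 0.42 and 2.18 ± 0.43. Pgd of the oxidative branch and Rpia, Rpe and Taldo1 of the non-oxidative branch were thus higher in GMP. The median difference of the list was 1.68, and 1.15 against CLP array 2 alone (0.246 and 0.0754 over all genes tested). Rpe and Taldo1 differed by 1.33 and 1.15 against CLP array 2 alone.

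In mitochondria, of 21 citric acid cycle genes 2 were steady and higher in GMP, close to the share of 10.4% over all genes tested. Of 52 genes of oxidative phosphorylation 14 were steady and higher in GMP and 1 steady and lower. Dlat, a subunit of pyruvate dehydrogenase, and Idh3a, of the mitochondrial isocitrate dehydrogenase, differed by 2.34 ± 0.39 and 2.24 ± 0.45. Of complex I, Ndufb5 was at 11.03, 11.09 and 10.92 in GMP and at 8.14, 9.47 and 7.99 in CLP and Ndufa5 at 10.83, 10.73 and 10.41 in GMP and at 8.33, 8.73 and 8.58 in CLP, and Ndufs4 and Ndufb6 differed by 2.67 ± 0.55 and 2.08 ± 0.41. Uqcrfs1, the iron-sulfur subunit of complex III, differed by 2.14 ± 0.46. Atp5g2, 1 of the genes for the c subunit of ATP synthase, was the member lower in GMP, at 6.82, 6.60 and 6.80 in GMP and at 8.38, 8.79 and 8.25 in CLP. In Ndufb5 and the genes given by difference CLP array 2 lay nearest to GMP, while in Ndufa5 the CLP arrays were close together. Idh3a and Atp5g2 differed by 1.17 and -0.61 when their probe sets were averaged. Dlat, Idh3a, Ndufb5, Ndufs4, Ndufb6 and Uqcrfs1 differed by 1.54, 1.1, 1.54, 1.29, 1.27 and 1.05 against CLP array 2 alone.

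**Figure D4:**
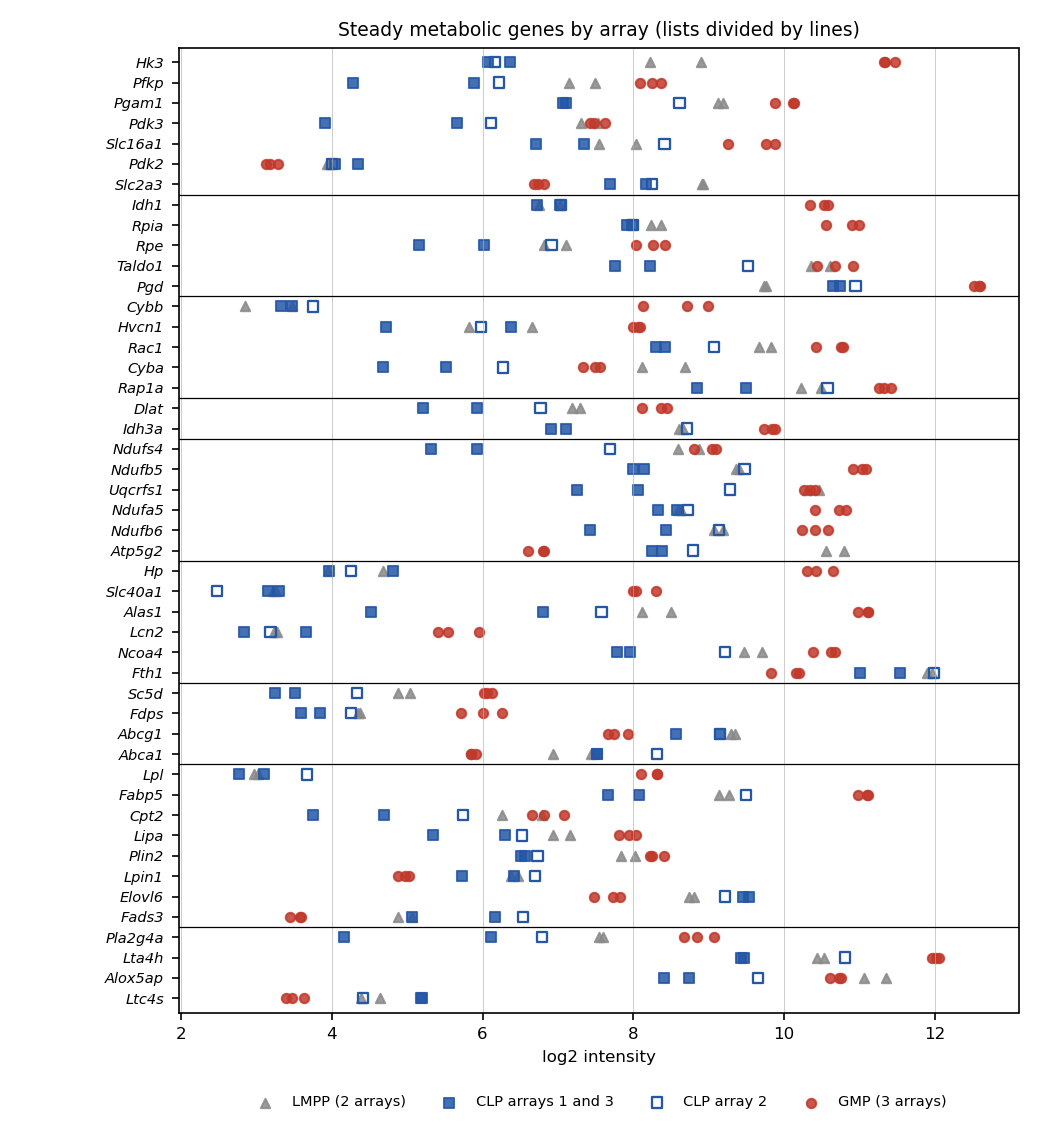
Log2 intensity (horizontal axis) of 47 steady metabolic genes, 1 point per array, with GMP as red circles, CLP as blue squares (array 2 open) and LMPP as grey triangles; lines divide, from the top, glycolysis, NADPH supply, phagocyte oxidase, citric acid cycle, oxidative phosphorylation, heme and iron, sterols, fatty acids and eicosanoids. CLP array 2 lies nearest to GMP in Pgam1, Taldo1 and Ndufs4, while the 3 CLP arrays stay together in Hk3, Idh1 and Rpia.

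In heme and iron handling, of 30 tested genes 9 were steady and higher in GMP and 1 steady and lower (6 more were too dim to test). Slc40a1, the iron exporter ferroportin, was at 8.31, 8.03 and 8.00 in GMP and at 3.16, 2.47 and 3.30 in CLP. Alas1, the first enzyme of heme synthesis, was at 11.12, 11.11 and 10.98 in GMP and at 6.80, 7.58 and 4.52 in CLP, with a wide spread among CLP arrays. Lcn2, the iron-binding granule protein lipocalin 2, differed by 2.40 ± 0.26, and Ncoa4, the receptor that delivers ferritin to lysosomes, by 2.24 ± 0.38. Fth1, the ferritin heavy chain, was lower in GMP, at 10.20, 10.16 and 9.83 in GMP and at 11.54, 11.99 and 11.01 in CLP. The median difference of the list was 0.85, and 0.46 against CLP array 2 alone (0.246 and 0.0754 over all genes tested). Ncoa4 differed by 1.35 against CLP array 2 alone.

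In lipid metabolism the directions were mixed. The steady shares of the sterol and fatty acid lists were close to those over all genes tested (10.4% higher and 5.23% lower). Of 28 tested sterol genes 2 were steady and higher in GMP and 2 steady and lower (1 more was too dim to test). The synthetic enzymes Sc5d (2.37 ± 0.29) and Fdps (2.10 ± 0.25) were higher in GMP, and the cholesterol exporters Abca1, at 5.91, 5.84 and 5.85 in GMP and at 7.52, 8.31 and 7.52 in CLP, and Abcg1 (-1.18 ± 0.26) were lower. Of 41 fatty acid genes 5 were steady and higher in GMP and 3 steady and lower (3 more were too dim to test). Lpl, lipoprotein lipase, was at 8.31, 8.31 and 8.10 in GMP and at 3.10, 3.67 and 2.76 in CLP, Fabp5, a fatty acid carrier, at 11.11, 11.10 and 10.99 in GMP and at 8.07, 9.50 and 7.66 in CLP, and Plin2, which coats lipid droplets, at 8.4, 8.25 and 8.22 in GMP and at 6.56, 6.73 and 6.51 in CLP. Cpt2, of mitochondrial fatty acid import, and Lipa, the lysosomal acid lipase, differed by 2.12 ± 0.46 and 1.87 ± 0.33. Elovl6, an elongase, was at 7.82, 7.73 and 7.48 in GMP and at 9.53, 9.22 and 9.45 in CLP and thus lower in GMP, as were Fads3 (-2.38 ± 0.35) and Lpin1 (-1.32 ± 0.28). Sc5d, Fdps, Abca1, Lpl and Cpt2 differed by 0.65, 0.98, -0.79, 2.59 and 1.34 when their probe sets were averaged. Fabp5 and Cpt2 differed by 1.57 and 1.11 against CLP array 2 alone.

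Of 19 tested genes of eicosanoid synthesis 3 were steady and higher in GMP and 1 steady and lower (7 more were too dim to test). Pla2g4a, the cytosolic phospholipase that frees arachidonic acid, differed by 3.17 ± 0.60. Lta4h, which makes leukotriene B4, was at 12.05, 11.97 and 12.01 in GMP and at 9.47, 10.81 and 9.43 in CLP, and Alox5ap, the 5-lipoxygenase activating protein, at 10.75, 10.73 and 10.61 in GMP and at 8.73, 9.65 and 8.41 in CLP. Ltc4s, which makes leukotriene C4 from the same precursor, was lower in GMP, at 3.39, 3.47 and 3.63 in GMP and at 5.19, 4.41 and 5.18 in CLP. Probe sets of Lta4h disagreed, with 2.16 and 2.11 on 2 of them and -1.12 (adjusted p = 0.038) on the third, so its direction is uncertain. Lta4h differed by 1.05 when its probe sets were averaged. Pla2g4a, Lta4h, Alox5ap and Ltc4s differed by 2.08, 1.21, 1.04 and -0.91 against CLP array 2 alone.

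Of 50 tested genes of sphingolipids and glycans 10 were steady and higher in GMP and 5 steady and lower (3 more were too dim to test). Csgalnact2, which starts chondroitin chains, was at 10.24, 10.25 and 10.19 in GMP and at 5.11, 5.48 and 4.43 in CLP, and Chst13, a chondroitin sulfotransferase, at 7.18, 6.79 and 6.36 in GMP and at 3.35, 3.38 and 3.60 in CLP. B4galt6, which makes lactosylceramide, and Cers6, a ceramide synthase, differed by 3.84 ± 0.26 and 3.16 ± 0.23, and Smpdl3a, a relative of acid sphingomyelinase, by 2.54 ± 0.47. St6gal1, which adds alpha 2,6-linked sialic acid and makes the ligand of Cd22, was at 4.08, 4.02 and 4.17 in GMP and at 9.87, 10.14 and 8.19 in CLP. Chst15, which sulfates chondroitin further, was at 7.22, 7.40 and 6.98 in GMP and at 10.10, 10.47 and 10.13 in CLP, and St3gal6 (-2.13 ± 0.36), Hs6st1 (-1.24 ± 0.21) and Hs3st1 (-1.01 ± 0.17) were also lower in GMP. St6gal1 and St3gal6 differed by -2.97 and -1.30 when their probe sets were averaged. Smpdl3a differed by 1.36 against CLP array 2 alone.

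Of 44 genes of one-carbon and nucleotide metabolism 5 were steady and higher in GMP and 1 steady and lower (4 more were too dim to test), which is close to the background shares. Xdh, xanthine dehydrogenase of purine breakdown, was at 5.56, 4.83 and 5.44 in GMP and at 3.21, 3.15 and 3.35 in CLP, and Mthfd2, a mitochondrial folate enzyme, at 8.68, 8.59 and 8.24 in GMP and at 6.47, 6.80 and 6.18 in CLP. Gmps, which makes guanosine monophosphate, the thymidine kinase Tk1 and Psat1, of serine synthesis, differed by 2.00 ± 0.43, 1.78 ± 0.32 and 1.74 ± 0.31. Phgdh, the first enzyme of serine synthesis, was lower in GMP (-1.02 ± 0.23) although Psat1, the next enzyme, was higher. Of 29 amino acid genes 3 were steady and higher in GMP (15 more were too dim to test), again close to the background share. They were Sat1, which acetylates polyamines (3.77 ± 0.34), Glud1, glutamate dehydrogenase (2.21 ± 0.46), and Asl, argininosuccinate lyase (1.97 ± 0.32). Of 35 redox genes 5 were steady and higher in GMP and 1 steady and lower (3 more were too dim to test). Gsr, glutathione reductase, which uses NADPH, was at 9.40, 9.17 and 8.75 in GMP and at 4.97, 5.43 and 4.78 in CLP, and Gstm1, a glutathione transferase, at 9.99, 9.93 and 10.05 in GMP and at 6.57, 6.37 and 7.08 in CLP. Ggh, which trims glutamate from folates, and Glrx, glutaredoxin, differed by 2.86 ± 0.36 and 1.85 ± 0.40, and Sesn3, a stress-induced sestrin, was lower in GMP (-1.57 ± 0.24). Gmps, Phgdh and Glrx differed by 0.98, -0.67 and 1.03 when their probe sets were averaged. Tk1, Psat1 and Glud1 differed by 1.12, 1.11 and 1.04 against CLP array 2 alone. Gmps (0.94, adjusted p = 0.054) was not called against CLP array 2 alone.

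Of 49 tested genes of the endoplasmic reticulum and secretion 26 were steady and higher in GMP (2 more were too dim to test), the largest number of any list. Pdia6, a disulfide isomerase, was at 11.33, 11.16 and 10.84 in GMP and at 7.99, 9.23 and 7.66 in CLP. Spcs2, of the signal peptidase, was at 10.93, 10.91 and 10.62 in GMP and at 6.93, 9.07 and 6.62 in CLP, and Ssr2, of the translocon-associated complex, at 9.64, 9.69 and 9.57 in GMP and at 5.97, 7.89 and 6.52 in CLP. In each of these CLP array 2 was the highest CLP array yet lay below every GMP array. Ssr4, of the same complex, and Ostc, of oligosaccharyl transferase, differed by 3.10 ± 0.71 and 2.91 ± 0.48. The median difference of this list was 1.77, and 1.05 against CLP array 2 alone (0.246 and 0.0754 over all genes tested). Of 46 lysosomal genes 15 were steady and higher in GMP and 2 steady and lower (2 more were too dim to test). Ctsh, cathepsin H, was at 8.38, 8.18 and 7.95 in GMP and at 4.44, 3.98 and 4.32 in CLP. Hexa and Ctsz, lysosomal enzymes, and Atp6v1a, of the proton pump, differed by 2.90 ± 0.45, 2.89 ± 0.50 and 2.91 ± 0.50. Dnase2a, the nuclease of lysosomes, was lower in GMP, at 6.86, 6.68 and 6.72 in GMP and at 8.68, 8.60 and 8.73 in CLP, and so was Gm2a, a cofactor of ganglioside breakdown (-1.47 ± 0.22). Pdia6, Ssr4, Ostc and Gm2a differed by 1.43, 1.00, 1.69 and -0.59 when their probe sets were averaged. Spcs2, Ssr2, Ssr4, Ostc, Hexa, Ctsz and Atp6v1a differed by 1.75, 1.74, 1.34, 1.70, 1.75, 1.60 and 1.77 against CLP array 2 alone.

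Of 34 tested genes of ribosome biogenesis and translation 2 were steady and higher in GMP and 1 steady and lower. Fbl, fibrillarin of the nucleolus (1.54 ± 0.28), and Pes1, of the large ribosomal subunit assembly (1.76 ± 0.34) were higher, and Eef2k, a kinase that slows elongation, was lower, at 8.49, 8.41 and 8.06 in GMP and at 10.36, 9.64 and 10.13 in CLP. Of 56 cell cycle genes 16 were steady and higher in GMP and 1 steady and lower (2 more were too dim to test). Ccne2, cyclin E2, was at 8.52, 8.31 and 8.29 in GMP and at 4.22, 6.40 and 3.73 in CLP, and Bub1, a kinase of the spindle checkpoint, at 8.62, 8.42 and 8.24 in GMP and at 4.17, 6.21 and 4.12 in CLP. Cdc6, which licenses replication origins, and Ccnb2, cyclin B2, differed by 3.04 ± 0.66 and 3.00 ± 0.39. Cdkn1a, the inhibitor p21, was lower in GMP, at 6.50, 6.42 and 6.33 in GMP and at 8.29, 8.69 and 8.01 in CLP, while the retinoblastoma gene Rb1 was higher (2.67 ± 0.53). After centring on housekeeping genes 17 members of the list were called higher and 11 lower, against 1408 and 5508 of all 11588 genes tested. The median difference of the list against CLP array 2 alone was 0.68, against 0.0754 over all genes tested. Rb1 differed by 1.68 when its probe sets were averaged. Ccne2, Bub1, Cdc6 and Rb1 differed by 1.98, 2.21, 1.59 and 1.51 against CLP array 2 alone.

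Of 34 tested genes of cell death and the Gimap family 4 were steady and higher in GMP and 9 steady and lower (1 more was too dim to test). The inflammatory caspases Casp1 (2.68 ± 0.60) and Casp4 (2.95 ± 0.46), the apoptosome scaffold Apaf1 (2.46 ± 0.34) and the adaptor Bcl10 (1.76 ± 0.38) were higher in GMP. The 5 lower members with the largest difference were Gimap genes. Gimap7 was at 2.75, 3.01 and 2.99 in GMP and at 8.10, 8.64 and 7.89 in CLP, and Gimap6 and Gimap5 differed by -4.0 ± 0.43 and -3.10 ± 0.35. In LMPP, Gimap6 was as high as in CLP (8.10 and 7.78) and Gimap4 was near GMP (4.25 and 3.99). In the order of tested protein-coding genes, a run of 6 Gimap genes on chromosome 6 was steady and lower. A run of 6 on chromosome 19, with Ms4a3, Ms4a2 and Ms4a6c among them, was steady and higher. Genes that were not tested were skipped in this order. Probe sets of such families can cross-hybridise, so members are not independent of each other. Casp1, Casp4 and Bcl10 differed by 1.15, 1.90 and 0.97 against CLP array 2 alone.

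Of 49 genes of the cytoskeleton and migration 5 were steady and higher in GMP and 12 steady and lower (2 more were too dim to test). Nrp1, the semaphorin receptor neuropilin 1, was at 7.41, 7.26 and 7.11 in GMP and at 4.14, 3.67 and 3.93 in CLP. Vim, vimentin, Sema4a, a semaphorin, and Myo1f, a myosin, differed by 2.24 ± 0.21, 2.04 ± 0.27 and 1.99 ± 0.24. Evl, an actin elongation factor, was at 5.21, 4.98 and 4.54 in GMP and at 7.57, 8.92 and 7.52 in CLP, and Lsp1, an actin-binding protein of leukocytes, at 6.32, 6.07 and 6.12 in GMP and at 8.88, 9.90 and 8.84 in CLP. Marcks and Marcksl1, related membrane-bound actin regulators, were both lower in GMP (-1.99 ± 0.28 and -2.88 ± 0.28), as was the tropomyosin Tpm4 (-1.85 ± 0.28). Of 44 genes of the interferon response 1 was steady and higher in GMP and 7 steady and lower (3 more were too dim to test). Ifih1, the RNA sensor MDA5, was higher in GMP (2.60 ± 0.39). The interferon-induced genes Rtp4 (-2.52 ± 0.28) and Xaf1 (-1.30 ± 0.28), the interferon regulatory factors Irf2 (-1.76 ± 0.24) and Irf9 (-1.32 ± 0.27) and the peptide transporter Tap1 (-1.47 ± 0.25) were lower, with Rtp4 at 5.71, 5.53 and 5.34 in GMP and at 8.01, 8.48 and 7.66 in CLP. Nrp1, Marcks, Rtp4, Xaf1 and Tap1 differed by 2.09, -1.31, -1.59, -0.82 and -0.65 when their probe sets were averaged.

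Markers of other cells were examined for both groups. Of 11 tested markers of mast cells, basophils and eosinophils 6 were steady and higher in GMP (3 more were too dim to test), and the 11 averaged 7.28, 7.29 and 7.18 in GMP and 5.23, 5.19 and 5.32 in CLP. Cpa3, a mast cell carboxypeptidase, was at 9.16, 9.11 and 9.0 in GMP and at 4.23, 4.22 and 3.95 in CLP, Ms4a2, a chain of the high-affinity IgE receptor, differed by 4.20 ± 0.27, and Mcpt8, a basophil protease, by 2.36 ± 0.21. Fcer1a, another chain of that receptor, was too dim to be tested. The part of cells of these lineages in the GMP values was not tested. Of 15 stromal and endothelial markers on the array 10 were too dim to be tested, Col1a1, Cxcl12 and Cdh5 among them, and none of the other 5 was steady. Pdgfrb, a platelet-derived growth factor receptor, was at 6.79, 6.76 and 6.32 in GMP and at 8.61, 8.59 and 7.20 in CLP and was called lower (-1.51 ± 0.40, adjusted p = 0.019), also against CLP array 2 alone (-1.97), but not without CLP array 1 (adjusted p = 0.066) or any 1 of the GMP arrays. Of 21 markers of B lineage cells 17 were steady and lower in GMP (5 more were too dim to test), and they averaged 4.75, 4.76 and 4.68 in GMP and 7.83, 8.29 and 7.85 in CLP. Of 29 T, NK and innate lymphoid markers on the array 16 were too dim to be tested, Cd3d, Cd3g, Bcl11b, Ncr1 and Eomes among them, and of the 13 tested 1 was steady and higher in GMP and 3 steady and lower. Klrd1, encoding CD94, was at 3.52, 3.51 and 3.47 in GMP and at 6.45, 7.30 and 5.87 in CLP, and Cd6 at 4.38, 4.42 and 4.24 in GMP and at 5.4, 6.05 and 5.71 in CLP. Nkg7, a granule membrane protein of cytotoxic cells, was higher in GMP (2.24 ± 0.29). Ms4a2 differed by 2.67 when its probe sets were averaged.

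Of 21 tested markers of monocytes, macrophages and dendritic cells 2 were steady and higher in GMP and 7 steady and lower (8 more were too dim to test). F13a1 and Csf1r were the higher ones, while H2-Aa, a class II chain, was lower, at 6.72, 6.71 and 6.25 in GMP and at 8.20, 8.68 and 8.12 in CLP, as were Itgax, the integrin CD11c (-1.30 ± 0.24), Klrd1, Tcf4 and Flt3. Of 17 stem cell markers 1 was steady and lower in GMP (9 more were too dim to test), and of 17 erythroid and megakaryocyte markers none was steady (5 more were too dim to test). Among the latter the carbonic anhydrase Car1 (1.52 ± 0.30) and the nuclear protein Hemgn (1.26 ± 0.34) were called, but not against CLP array 2 alone (0.918, adjusted p = 0.42, and 0.717, adjusted p = 0.27), and the list averaged 5.49, 5.41 and 5.31 in GMP and 4.90, 5.15 and 5.03 in CLP. Of 27 stress and immediate early genes 3 were steady and higher in GMP and 6 steady and lower (4 more were too dim to test). The AP-1 factor Fosl2 (3.06 ± 0.27) and the stress gene Gadd45b (2.49 ± 0.36) were higher in GMP and the AP-1 factor Jund (-1.74 ± 0.28), Socs3, Egr1 and Zfp36 lower, with means of 6.51, 6.50 and 6.41 in GMP and 6.58, 6.51 and 6.78 in CLP over the list. The part of handling in these genes was not tested. Fosl2 and Gadd45b differed by 1.56 and 1.40 when their probe sets were averaged.

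LMPP levels placed the differences in the sequence of progenitors, as a description. Among the 1200 steady genes higher in GMP, both LMPP arrays lay at or below the highest CLP array for 374, strictly between the groups for 544, and at or above the lowest GMP array for 69, with 213 others. Among the 606 lower in GMP, both LMPP arrays were at or below the highest GMP array for 42, between the groups for 256, and at or above the lowest CLP array for 193, with 115 others. For the genes higher in GMP the LMPP mean was nearer to CLP in 744 and nearer to GMP in 456, and for the genes lower in GMP it was nearer to CLP in 363 and nearer to GMP in 243. Fcgr3 (3.10 and 3.55 in LMPP), Slc40a1 (3.27 and 3.22) and Idh1 (6.75 and 7.03) were examples of the higher genes at the CLP level in LMPP. Klf4 (8.19 and 8.24) and Cyba (8.68 and 8.12) were examples at the GMP level or above. Among the lower genes, Flt3, Tcf4 and Tspan13 (11.38 and 11.47) were at the CLP level in LMPP, and Ebf1, Foxo1 and Pou2af1 (2.23 and 2.49) at the GMP level.

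**Figure D5:**
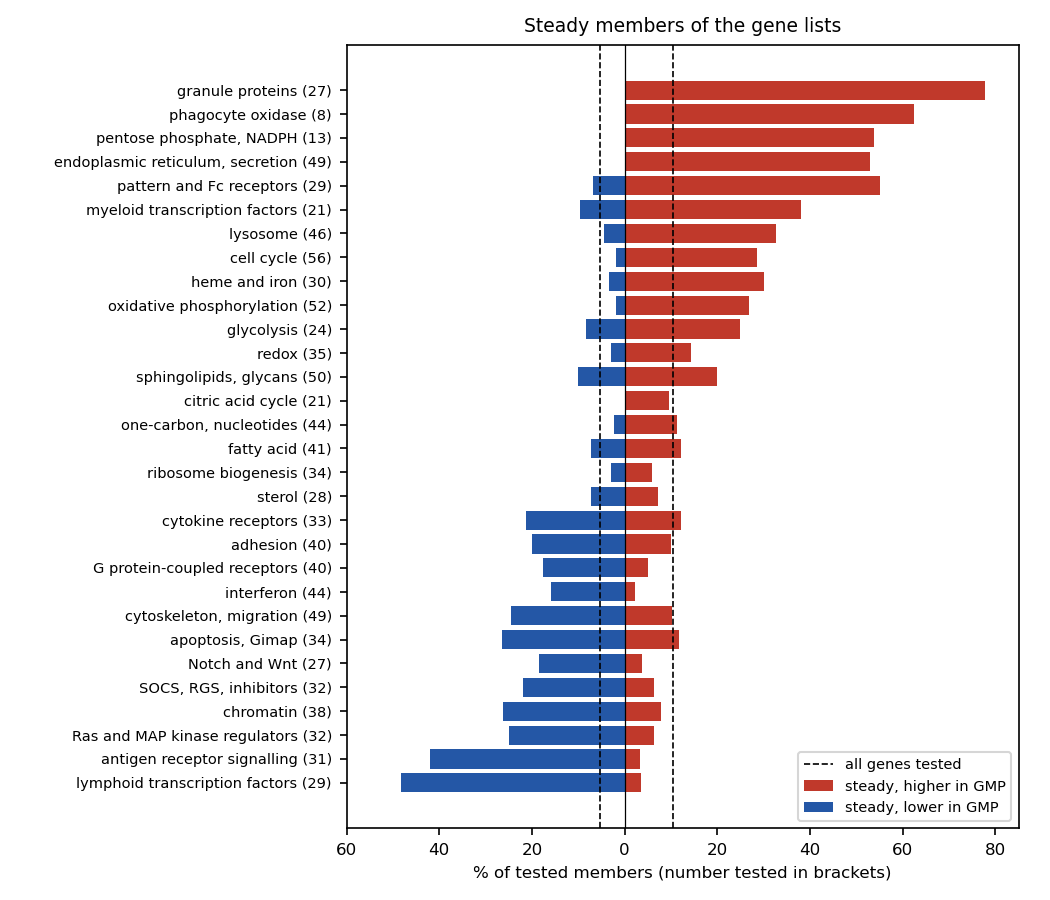
Share of the tested members of 30 gene lists (number tested in brackets) that were steady and higher in GMP (red bars, to the right) or steady and lower (blue bars, to the left); dashed lines mark the shares over all genes tested, 10.4% and 5.23%. Granule proteins (21 of 27 higher), the phagocyte oxidase (5 of 8) and pattern and Fc receptors (16 of 29) stand farthest to the right, and lymphoid transcription factors (14 of 29 lower) and antigen receptor signalling (13 of 31) farthest to the left.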

How the data were processed

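The deposited values are intensities of 45101 probe sets on 20 arrays, which the authors made with RMA per the submitters' processing notes (version not given in the sources used here). They are linear, whereas log2 values had been assumed when the test was designed, so the log2 of each intensity was taken first. Of the probe sets, 34958 had 1 gene symbol, 932 several and 9211 none here; 34754 were matched by Entrez ID to RefSeq names of GRCm38.p6. Each of 18194 genes took the values of 1 single-symbol probe set, that with the highest mean over all arrays. Genes above the array median on at least 3 of the 6 arrays were tested, 11588 in all, and 6606 were left out as dim.

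The 6 GMP and CLP arrays were compared by limma 3.58.1 (R 4.3.3), using lmFit and trended eBayes with 4 residual degrees of freedom, with Benjamini-Hochberg adjustment over all genes tested. Only these arrays entered the main fit because of the unequal spread of groups. The method was tested on simulated data with the spread of each group. Values against CLP array 2 alone came from a fit over the other groups as well, in which this lone array is assumed to vary like them.

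The members and the 47 gene lists were chosen with earlier results of these data known. Named were the 10 steady genes with the largest difference in each direction, up to 5 steady members of each list in each direction, up to 2 called members of a list with none steady, and label, cell type marker and transcription factor genes whatever their call. Those 10 exclude antigen receptor segments and unnamed gene models. The alternatives tried are given with their effect in the closing section. Sequences came from a RefSeq table of GRCm38.p6 start regions.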

Additional observations from a re-analysis of the deposited data

How the results depend on the processing

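Of 3505 genes higher and 1609 lower in GMP, the counts moved by more than 1.5 times under these settings. After centring on housekeeping genes they were 1408 and 5508, against a 2-fold threshold 566 and 207, against CLP array 2 alone 1872 and 1055, and with every probe set on its own 5626 and 2536 of 19778 probe sets; the cause was not tested. Leaving out 1 replicate gave 1816 to 4921 higher and 741 to 2322 lower genes, with fewer samples in the fit. The other settings kept both counts within 1.5 times: the fit over 20 arrays, either change of the filter on dim genes, averaged probe sets, no intensity trend, a second quantile normalization, array weights (a fit with a convergence warning) and a separate variance per group. With the replicate number as a replicate block they were 3669 and 1530. GMP and CLP arrays with the same number deviated together at correlations of -0.163, 0.0522 and 0.224, and GMP array 1 correlated best with CLP array 2. With 3 arrays a side, such correlations cannot show whether the numbers pair the samples. The 241 named steady genes were chosen for keeping their call without any 1 array, with averaged probe sets, after quantile normalization, after housekeeping centring and over 20 arrays, so only the other settings could end it: 96 were not called against a 2-fold threshold and 12 not against CLP array 2 alone, 9 were too dim for the stricter filter, and none lost its call with the other filters, no trend, the replicate block, array weights or separate variances. Values moved by more than 1.5 times for 111 of them after housekeeping centring, 58 with the mean of probe sets, 54 against CLP array 2 alone and 1 after a second quantile normalization. Genes that were not steady reversed as follows, and the cause was not tested: Jak2 (-0.00882) and Csf2ra (-0.0601) after housekeeping centring; Spi1 (-0.249 and -0.738), Irf8 (-0.0576 and -0.545) and Myb (-0.165 and -0.755) after quantile normalization and housekeeping centring; Irf8 against CLP array 2 alone (-0.315); and Cd34, with values from -0.787 to 0.0657 when 1 replicate was left out. The number of arrays, 3 a side, limits the precision.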

Other observations

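Of the 1806 steady genes, 1437 stood in none of the 47 gene lists, and the genes below were picked from them after their values were seen, for the size of the difference. On the GMP side were enzymes of varied pathways. Gda, guanine deaminase of purine breakdown, was at 11.09, 11.11 and 10.84 in GMP and at 5.18, 4.38 and 4.42 in CLP. Papss2, which makes the sulfate donor used by sulfotransferases, was at 8.03, 7.85 and 7.80 in GMP and at 2.63, 2.60 and 2.77 in CLP. Mgam, an alpha-glucosidase known from the gut, was at 8.24, 8.06 and 8.10 in GMP and at 2.88, 2.73 and 2.79 in CLP. LMPP were at the CLP level for each of these, for example at 2.71 and 2.60 for Papss2. Hnmt, which inactivates histamine (4.94 ± 0.19), and Dio2, a deiodinase that activates thyroid hormone (4.94 ± 0.25), were also higher in GMP. Among surface molecules Met, the receptor of hepatocyte growth factor, was at 8.94, 8.91 and 8.65 in GMP and at 3.01, 2.75 and 2.96 in CLP. Igsf6 (6.19 ± 0.22), Siglecf, a sialic acid-binding lectin of eosinophils (4.41 ± 0.24), Olr1, a scavenger receptor (4.18 ± 0.19), and Gja1, the gap junction protein connexin 43 (4.55 ± 0.35), followed. Papss2, Dio2, Met and Gja1 differed by 1.66, 2.38, 3.02 and 2.31 when their probe sets were averaged.

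On the CLP side, Pgr, the progesterone receptor, was at 3.07, 2.90 and 3.06 in GMP and at 8.31, 8.02 and 7.89 in CLP, and LMPP at 3.80 and 2.83 were near GMP. Camk1d, a calcium-dependent kinase, was at 3.85, 3.56 and 3.25 in GMP and at 8.96, 9.31 and 8.47 in CLP. Nlrc3, a negative regulator of innate sensing (-5.55 ± 0.38), Jakmip1, which binds microtubules (-5.36 ± 0.24), Arpp21, an RNA-binding phosphoprotein (-5.27 ± 0.30), and Icos, a costimulatory receptor of T cells (-3.90 ± 0.23), were likewise lower in GMP. Slc27a2, a very long chain fatty acid carrier (-4.81 ± 0.26), and St8sia1, the synthase of ganglioside GD3 (-3.15 ± 0.17), add metabolic genes to this side. Rps15, a ribosomal protein gene, was at 7.85, 7.59 and 7.68 in GMP and at 10.63, 11.37 and 11.03 in CLP and at 12.35 and 12.43 in LMPP. Pgr, Nlrc3, Jakmip1, Arpp21, Icos and St8sia1 differed by -2.16, -3.36, -2.67, -2.27, -2.33 and -1.51 when their probe sets were averaged.

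Probe sets of a gene did not always move together. Among 4948 genes with at least 2 probe sets tested one by one, 1609 had at least 2 called, and in 150 of these the called probe sets went in opposite directions, 10 steady genes among them. Cnnm4, a metal transporter, was higher in GMP by 4.70 ± 0.41 on the probe set used here and lower by another (-1.32 ± 0.23). Fli1, an ETS family factor, gave 1.65 ± 0.40 on one and -1.46 ± 0.24 on another. Actb gave -4.63 ± 0.28 on one of its 5 probe sets, 0.69 ± 0.22 on the 3' control probe set and -1.26 ± 0.67 on the 5' control probe set. The cause of these differences was not tested.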
